A study of Mus musculus with 18 samples.

Results

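The Fos, Jun and Egr genes described here encode AP-1 and EGR transcription factors and are grouped under the name of immediate early genes. They are Fos, Fosb, Fosl1 and Fosl2, Jun, Junb and Jund, and Egr1, Egr2 and Egr3. They were taken from the deposited count table as the rows whose Ensembl identifiers carry these symbols, which gave 10 of 21647 listed genes, and all 10 held enough reads to be tested. The RNA came from cultured cells of the mouse embryonic aorta that the labels call endothelial, either wild type (WT) or homozygous for the Tg737 orpk allele (orpk), an insertion in Ift88. Ift88 encodes a carrier of cargo along the primary cilium, a sensory projection of the cell surface that bends under flow. Cells of each genotype had 24 h of serum starvation and were then exposed to laminar shear of 2 or 30 dyn/cm² for 48 h or kept static for a time the labels do not give. That gave 6 groups of 3 libraries: WT static, WT at 2, WT at 30, orpk static, orpk at 2 and orpk at 30 dyn/cm². Both genotypes grew in the same medium with low serum, on gelatin. The labels do not say whether the libraries of a group came from separate embryos, isolations or dishes, so a p-value here weighs a difference against library spread alone, and that spread may be technical.

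AP-1 is a dimer of basic leucine zipper proteins, one from the Fos family and one from the Jun family, or of 2 Jun proteins. Fos and FosB carry a strong activation domain, which Fra-1 (from Fosl1) and Fra-2 (from Fosl2) lack, so the make-up of the dimer sets how it acts on a promoter. EGR proteins are zinc finger factors that bind GC-rich sites and are held in check by the corepressors NAB1 and NAB2. Genes of both groups, such as Fos and Egr1, are switched on within minutes of a stimulus, without new protein synthesis. They are reached through kinases that act on SRF with its ternary complex partners and on CREB and ATF proteins. Not all members share this speed, and Jund is known for steady expression. In endothelium the onset of flow is a classical trigger of Fos, Jun and Egr1, and their transcripts then decline as flow persists.

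The proximal promoters are shown for 5 genes whose transcripts moved with shear and whose window held the letters of a CREB, ATF or SRF site, the sites of those inputs. Each sequence is the 250 bases before the RefSeq transcription start on GRCm38.p6, read 5′ to 3′ on the strand of the gene, with motif matches in capitals. In the order given they are chr12:85473640-85473889 (plus strand), chr7:19310046-19310295 (minus), chr4:95052223-95052472 (minus), chr8:84978749-84978998 (minus) and chr10:67537619-67537868 (plus).
Fos: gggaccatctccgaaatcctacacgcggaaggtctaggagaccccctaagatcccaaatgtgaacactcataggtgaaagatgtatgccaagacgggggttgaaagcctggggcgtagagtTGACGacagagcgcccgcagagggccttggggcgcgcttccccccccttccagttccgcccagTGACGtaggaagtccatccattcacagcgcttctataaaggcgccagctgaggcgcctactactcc
Fosb: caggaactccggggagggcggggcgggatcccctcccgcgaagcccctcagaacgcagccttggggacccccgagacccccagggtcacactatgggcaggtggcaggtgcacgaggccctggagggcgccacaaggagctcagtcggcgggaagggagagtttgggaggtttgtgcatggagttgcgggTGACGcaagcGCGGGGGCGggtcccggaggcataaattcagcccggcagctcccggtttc
Jun: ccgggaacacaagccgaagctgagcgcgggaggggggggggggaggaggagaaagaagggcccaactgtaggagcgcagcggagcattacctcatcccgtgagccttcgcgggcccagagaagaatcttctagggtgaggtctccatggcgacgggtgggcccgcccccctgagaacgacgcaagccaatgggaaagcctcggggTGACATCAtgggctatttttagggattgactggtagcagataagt
Junb: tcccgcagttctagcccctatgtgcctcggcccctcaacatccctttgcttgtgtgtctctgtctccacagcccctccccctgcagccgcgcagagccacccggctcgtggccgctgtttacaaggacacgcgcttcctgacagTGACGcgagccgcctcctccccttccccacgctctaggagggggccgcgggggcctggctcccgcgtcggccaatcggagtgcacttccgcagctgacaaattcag
Egr2: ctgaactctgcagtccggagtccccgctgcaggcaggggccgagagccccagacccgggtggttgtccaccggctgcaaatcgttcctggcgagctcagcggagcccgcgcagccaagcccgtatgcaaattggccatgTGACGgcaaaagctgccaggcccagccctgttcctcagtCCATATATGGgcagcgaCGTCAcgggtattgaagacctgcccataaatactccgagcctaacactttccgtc

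Both strands were searched for 5 motifs in the windows of the 7 members that had any, and in 32851 windows of the same length. A member was counted as holding a motif if any of its windows did, and Egr2 had 5 windows. Counts of members are therefore not on the same footing as shares of windows. TGACG, the core of the site for CREB and ATF proteins, was held by 4 of the 7 members and stood in 17.8% of all windows. The Fos promoter held it 129 and 66 bases before the start, Fosb 60 bases, Junb 106 bases, and Egr2 111 bases and, on the other strand, 55 bases before it. TGACATCA, a variant AP-1 and ATF site, stood 45 bases before the start of Jun, and in 2.93% of all windows. The CArG box, the site of SRF, stood 72 bases before the printed Egr2 start, and in 1.47% of all windows. The printed Egr2 window was chosen from those of its starts with a CArG box near the start. Its match was thus fixed by that choice and is not to be weighed against the share of all windows. GCGNGGGCG, the letters of an EGR site, stood in the Fosb and Fosl2 windows (50 and 79 bases before the start) and in 4.70% of all windows. The AP-1 letters TGANTCA were held by 0 of the 7 members and stood in 6.75% of all windows. TGACG and TGACATCA share their first letters but not a whole match, and in the Fosb window the TGACG and GCGNGGGCG matches lie side by side without overlap. For Egr2 RefSeq lists 5 starts, and the printed window lies inside the gene as GENCODE M21 draws it on GRCm38 (chromosome 10, 67535475 to 67542188). A match of letters is a description of these windows, not evidence of a bound site.

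Library totals ran from 13626480 to 17387553 counts, and 13058 of the 21647 genes passed the filter on low counts. Ift88, the gene that carries the insertion, had 12.8 to 17.4 CPM (counts scaled to the library size) in the 9 WT libraries and 6.37 to 8.46 CPM in the 9 orpk libraries, so the genotypes did not overlap. The label of an endothelial cell was not borne out by the defining markers Cdh5, Tie1, Erg and Pecam1. In WT, Cdh5, Tie1 and Erg had 0 reads in every library, and Pecam1 averaged 0.646 to 1.32 CPM per group. In orpk Pecam1 averaged 0.140 to 0.371 CPM, Cdh5 0.537 to 0.996, Erg 0.641 to 1.16 and Tie1 at most 0.0406. Vwf (3.26 to 4.55 CPM in orpk), Kdr (0.702 to 2.77), Esam (1.21 to 2.51) and Tek (0.55 to 1.82) were higher there than in WT. Egfl7 went the other way, with 10.2 to 11.3 CPM in WT and 1.98 to 3.82 in orpk. Emcn and Cldn5 averaged at most 0.0988 CPM in any group. Summed as CPM of the library total, the 12 endothelial markers had 28.1 to 55.7 CPM in WT and 85.4 to 127 CPM in orpk, in both mostly Flt1. The other marker sums differed between the genotypes as well: the 6 fibroblast markers had 802 to 1277 CPM in WT and 19646 to 29109 in orpk, and the 5 smooth muscle markers 51.4 to 143 in WT and 731 to 2613 in orpk. The 6 epithelial markers had 353 to 492 CPM in WT and 16.1 to 93.1 in orpk. The 5 leukocyte markers had 13.2 to 52.5 in WT and 6.55 to 15.2 in orpk, with Adgre1 at 0 in all. In WT the fibroblast sum was mostly Col1a1, the smooth muscle sum mostly Tagln and the leukocyte sum mostly Csf1r. In orpk the epithelial sum was mostly Krt19. Replicate 1 of WT at 2 dyn/cm² and replicate 2 of orpk at 2 dyn/cm² stood apart from their groups. Divided by its degrees of freedom, the chi-square of the counts was 6.10 and 7.43 between the former and its fellow libraries and 3.28 and 3.66 for the latter.

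The first question is what the Fos genes did in WT cells that had been under shear for 48 h. Fos and Fosb, the family members with an activation domain, were higher than in static culture under both shears. Fosl1 was higher at 30 dyn/cm², and Fosl2, the family member with the highest level in static WT cells, was lower under both. Levels of single genes are in CPM scaled by the trimmed mean of M values (TMM), and differences are log2 fold changes with the standard error (SE) from edgeR's quasi-likelihood fit.

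Fos (ENSMUSG00000021250, GRCm38 chromosome 12, 85473890 to 85477273, plus strand) had 3.26, 5.04 and 4.25 CPM in the static WT libraries, 5.6, 7.81 and 8.03 CPM at 2 dyn/cm², and 6.77, 6.88 and 6.89 CPM at 30 dyn/cm². All 6 sheared libraries lay above all 3 static ones. Fos was 1.71-fold higher at 2 dyn/cm² (log2 fold change 0.77 ± 0.15, adjusted p = 1.71e-05) and 1.64-fold higher at 30 dyn/cm² (0.71 ± 0.15, adjusted p = 5.37e-05). Fosb (ENSMUSG00000003545, chromosome 7, 19302696 to 19310051, minus strand) had 1.31, 1.33 and 1.78 CPM in static WT cells, 2.72, 3.18 and 3.36 CPM at 2 and 4.85, 3.66 and 4.91 CPM at 30 dyn/cm². The 3 groups did not overlap and stood in the order of shear. Fosb rose 2.07-fold at 2 dyn/cm² (1.05 ± 0.20, adjusted p = 1.76e-05) and 2.99-fold at 30 dyn/cm² (1.58 ± 0.19, adjusted p = 7.62e-10), and counts per gene do not separate FosB from its truncated splice form.

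Fosl1 (ENSMUSG00000024912, chromosome 19, 5447547 to 5455946, plus strand) had 21.3, 24.0 and 23.5 CPM in static WT cells, 26.3, 25.7 and 24.4 CPM at 2 and 36.9, 31.8 and 33.2 CPM at 30 dyn/cm². The rise at 30 dyn/cm² was 1.48-fold (0.57 ± 0.07, adjusted p = 5.88e-10). At 2 dyn/cm² the difference of 0.15 ± 0.07 did not pass (adjusted p = 0.0545), although the libraries did not overlap, and it passed without replicate 2 of static WT (0.18, adjusted p = 0.0413) or replicate 3 at 2 dyn/cm² (0.18, adjusted p = 0.0386) and when scaled by library totals (0.26). The Fosl1 exons share 1163 bases with those of Ccdc85b on the other strand, and Ccdc85b fell in WT at both shears (-0.61 ± 0.14 and -0.60 ± 0.14). Fosl2 (ENSMUSG00000029135, chromosome 5, 32135801 to 32157842, plus strand) had 237, 224 and 231 CPM in static WT cells, 125, 132 and 135 CPM at 2 and 159, 153 and 149 CPM at 30 dyn/cm². Every sheared library lay below every static one, and the lowest level was at 2 dyn/cm². Fosl2 fell 1.77-fold at 2 dyn/cm² (-0.82 ± 0.04, adjusted p = 3.61e-22) and 1.5-fold at 30 dyn/cm² (-0.58 ± 0.04, adjusted p = 1.10e-17).

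**Figure D1:**
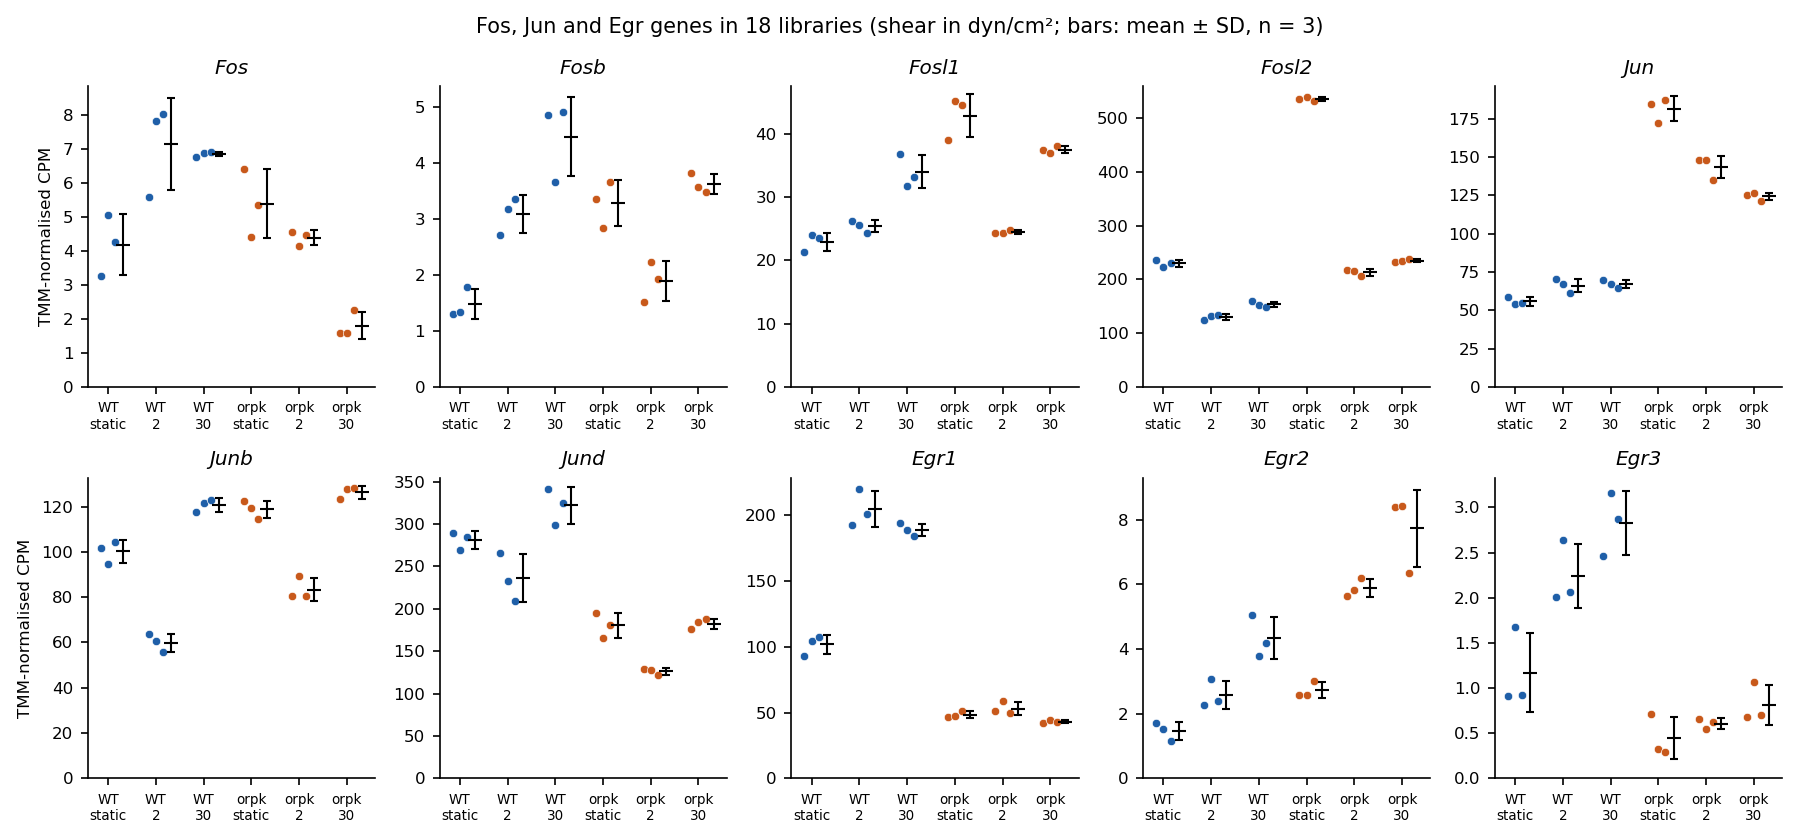
TMM-normalised level (CPM, linear axes from 0) of each gene in the 18 libraries, as points for single libraries, blue for WT and orange for orpk, with a bar for the mean ± SD of the 3 libraries of a group; shear is in dyn/cm². Egr1 lies between 93.3 and 219.9 CPM in WT and between 42.2 and 58.6 CPM in orpk, and Fos is lowest in orpk at 30 dyn/cm².

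The Jun genes encode the obligate partners of the Fos proteins, and in WT the sheared and static libraries of each were separate at both shears. Jun (ENSMUSG00000052684, chromosome 4, 95049034 to 95052222, minus strand) had 58.8, 53.7 and 54.7 CPM in static WT cells, 70.0, 66.8 and 61.2 CPM at 2 and 69.6, 67.4 and 64.5 CPM at 30 dyn/cm². It was higher by 1.18-fold (0.24 ± 0.05, adjusted p = 8.79e-05) and 1.20-fold (0.27 ± 0.05, adjusted p = 1.83e-05), with no overlap at either shear. Junb (ENSMUSG00000052837, chromosome 8, 84974484 to 84978718, minus strand), which often opposes Jun at shared promoters, had 102, 94.6 and 104 CPM in static WT cells, 63.7, 60.4 and 55.8 CPM at 2 and 117, 122 and 123 CPM at 30 dyn/cm². Its direction thus depended on the shear: it fell 1.67-fold at 2 dyn/cm² (-0.74 ± 0.05, adjusted p = 7.20e-17) and rose 1.20-fold at 30 dyn/cm² (0.27 ± 0.05, adjusted p = 1.77e-06). Prdx2, which shares 173 exon bases with Junb on the other strand, did not pass at either shear (0.01 ± 0.04 and -0.05 ± 0.04). Jund (ENSMUSG00000071076, chromosome 8, 70698949 to 70700616, plus strand), the Jun gene known for steady expression, had 289, 269 and 285 CPM in static WT cells, 266, 233 and 209.8 CPM at 2 and 342, 299 and 325 CPM at 30 dyn/cm². It moved the same way as Junb by less, by -0.25 ± 0.08 at 2 (adjusted p = 0.0108) and 0.20 ± 0.08 at 30 dyn/cm² (adjusted p = 0.0336). Both Jund calls were fragile. The one at 2 dyn/cm² was lost when libraries were scaled by their totals (-0.14, adjusted p = 0.129), and the one at 30 dyn/cm² without replicate 2 or 3 of static WT (0.17 and 0.21, adjusted p = 0.110 and 0.0606) or replicate 1 or 3 at 30 dyn/cm² (0.15 and 0.19, adjusted p = 0.116 and 0.0754). The antisense genes over Jun and Jund were not analysed here.

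All 3 Egr genes were higher in WT under both shears. Egr1 (ENSMUSG00000038418), the EGR gene with by far the most reads here, had 93.3, 105 and 107 CPM in static WT cells, 193, 219.9 and 201 CPM at 2 and 194, 189 and 185 CPM at 30 dyn/cm². Each sheared library held well above the highest static one. The rise was 2.01-fold at 2 dyn/cm² (1.01 ± 0.05, adjusted p = 7.02e-17) and 1.86-fold at 30 dyn/cm² (0.89 ± 0.05, adjusted p = 9.89e-16). Egr2 (ENSMUSG00000037868), known for its role in myelin and in immune tolerance, had 1.70, 1.54 and 1.15 CPM in static WT cells, 2.28, 3.06 and 2.39 CPM at 2 and 5.03, 3.77 and 4.19 CPM at 30 dyn/cm², in 3 groups that did not overlap. It rose 1.77-fold (0.82 ± 0.21, adjusted p = 0.00101) and 2.97-fold (1.57 ± 0.19, adjusted p = 2.00e-09). Egr3 (ENSMUSG00000033730, chromosome 14, 70077203 to 70082614, plus strand), a factor first known from muscle spindles and lymphocytes, had 0.914, 1.68 and 0.920 CPM in static WT cells, 2.01, 2.64 and 2.06 CPM at 2 and 2.46, 3.16 and 2.87 CPM at 30 dyn/cm². It rose 1.93-fold (0.95 ± 0.24, adjusted p = 0.00071) and 2.46-fold (1.30 ± 0.23, adjusted p = 3.67e-06) on few reads, 54 over the 3 static libraries.

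Counted together in WT, 6 members were higher and 3 lower at 2 dyn/cm² against static, where 62.9% of all tested genes were called, 32.6% higher and 30.3% lower. At 30 dyn/cm² 9 were higher and 1 lower, where 66.9% of all genes were called, 34.1% higher and 32.7% lower. The libraries of sheared and static cells did not overlap for 10 of 10 members at either shear, against 64.3% of all genes at 2 and 71.1% at 30 dyn/cm². The median absolute log2 fold change of the members was 0.80 at 2 and 0.65 at 30 dyn/cm², against 0.28 and 0.32 over all genes. Both comparisons share the static libraries, so they are not independent of each other. Marker sums moved with shear in WT too. From static to 30 dyn/cm² the endothelial sum went from 54.7 to 55.7 down to 28.1 to 31.5 CPM. The leukocyte sum went from 45.9 to 52.2 down to 13.2 to 14.4 CPM. The smooth muscle sum went from 51.4 to 55.7 up to 129 to 143 CPM. Each move was mostly that of a single gene: Flt1 (42.0 to 18.2 CPM), Csf1r (46.1 to 9.92) and Tagln (48.4 to 130). Cd68 went from 2.76 to 3.57 CPM, Acta2 stood at 0.821 and 0.837, and Cnn1 went from 1.59 to 1.03 CPM. The WT epithelial sum was 484 to 492 CPM in static cells, 353 to 380 at 2 and 448 to 473 at 30 dyn/cm². In that order Krt19 averaged 169, 20.1 and 17.9 CPM, and Krt8 155, 158 and 218 CPM. The WT fibroblast sum was 1016 to 1091 CPM in static cells, 802 to 823 at 2 and 1263 to 1277 at 30 dyn/cm². The part of these marker genes in the WT results was not tested. In bulk RNA, more cells with a transcript and more transcript per cell cannot be told apart.

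Between the sheared groups in WT, 6 members were higher at 30 than at 2 dyn/cm² and 0 were lower, where 33.1% of all genes were called, 15.9% higher and 17.2% lower. The libraries did not overlap for 6 members, against 42.9% of all genes. Junb differed most, by 2.01-fold (1.01 ± 0.05, adjusted p = 6.92e-21). The others were Egr2 (0.75 ± 0.16), Fosb (0.53 ± 0.15), Jund (0.45 ± 0.08), Fosl1 (0.42 ± 0.06) and Fosl2 (0.24 ± 0.04). Fos (-0.06 ± 0.13), Jun (0.02 ± 0.05), Egr1 (-0.11 ± 0.05) and Egr3 (0.35 ± 0.19) did not pass by edgeR's quasi-likelihood test. Of these 4, Egr1 had an unadjusted p of 0.0258, and it passed as lower without replicate 1 at 2 dyn/cm² (-0.16, adjusted p = 0.0126), the library that stood apart. With all libraries kept, Egr1 also passed edgeR's test with library totals (-0.14, adjusted p = 0.0259) and with no filter (-0.11, adjusted p = 0.0216). The same held with replicate number as a block (-0.11, adjusted p = 0.0404). The sign of the Fos and Jun differences also turned when single libraries were left out (ranges -0.21 to 0.04 and -0.03 to 0.07). Without replicate 1 at 2 dyn/cm² the counts against static stayed at 6 higher and 3 lower.

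In orpk cells no Fos gene was called higher than static at either shear. Fos had 6.42, 4.39 and 5.34 CPM in static orpk cells, 4.56, 4.15 and 4.46 CPM at 2 and 1.57, 1.57 and 2.25 CPM at 30 dyn/cm². The libraries at 30 dyn/cm² lay below all others of the series. Fos fell 2.98-fold from static to 30 dyn/cm² (-1.58 ± 0.21, adjusted p = 8.16e-09), while the difference at 2 dyn/cm² was -0.29 ± 0.16 and did not pass (adjusted p = 0.119), except without replicate 2 of static orpk (-0.42, adjusted p = 0.0346). Fosb had 3.35, 2.84 and 3.66 CPM in static orpk cells, 1.52, 2.23 and 1.92 CPM at 2 and 3.82, 3.57 and 3.49 CPM at 30 dyn/cm². Its libraries at 2 dyn/cm² lay below all static ones (1.72-fold lower, -0.78 ± 0.19, adjusted p = 0.000608), and at 30 dyn/cm² it differed from static by 0.15 ± 0.17 (adjusted p = 0.454).

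Fosl1 had 39.0, 45.2 and 44.6 CPM in static orpk cells, 24.4, 24.4 and 24.9 CPM at 2 and 37.5, 37.0 and 38.1 CPM at 30 dyn/cm². It fell 1.75-fold at 2 dyn/cm² (-0.81 ± 0.06, adjusted p = 2.46e-14) and 1.15-fold at 30 dyn/cm² (-0.20 ± 0.06, adjusted p = 0.00471), and Ccdc85b on the other strand moved by -0.32 ± 0.13 and 0.13 ± 0.12. Fosl2 had 535, 540 and 532 CPM in static orpk cells, 218, 217 and 206 CPM at 2 and 233, 234 and 239 CPM at 30 dyn/cm². The static orpk level was the highest of the series, and it fell 2.51-fold at 2 (-1.33 ± 0.04, adjusted p = 3.68e-30) and 2.28-fold at 30 dyn/cm² (-1.19 ± 0.04, adjusted p = 6.15e-29).

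No Jun gene was called higher than static in orpk cells either. Jun had 185, 172 and 187 CPM in static cells, 148, 148 and 135 CPM at 2 and 125, 126 and 122 CPM at 30 dyn/cm², 3 groups without overlap. It fell 1.26-fold (-0.34 ± 0.04, adjusted p = 1.06e-08) and 1.46-fold (-0.55 ± 0.04, adjusted p = 3.84e-14). Junb had 122, 119 and 115 CPM in static cells, 80.4, 89.2 and 80.5 CPM at 2 and 123, 128 and 128 CPM at 30 dyn/cm². It fell 1.42-fold at 2 dyn/cm² (-0.51 ± 0.05, adjusted p = 1.62e-12), as it did in WT, and did not pass at 30 dyn/cm² (0.09 ± 0.05, adjusted p = 0.0784). Prdx2, its neighbour on the other strand, fell in orpk at both shears (-0.33 ± 0.04 and -0.50 ± 0.04). Jund had 195, 165 and 181 CPM in static cells, 129, 128 and 121 CPM at 2 and 176, 184 and 187 CPM at 30 dyn/cm². It fell 1.43-fold at 2 dyn/cm² (-0.51 ± 0.08, adjusted p = 7.07e-05) and did not pass at 30 dyn/cm² (0.02 ± 0.08, adjusted p = 0.868), where the sign turned with other size factors.

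Of the Egr genes, Egr2 alone was called higher than static in orpk cells. Egr1 had 46.7, 47.3 and 51.5 CPM in static cells, 50.9, 58.6 and 49.8 CPM at 2 and 42.2, 44.4 and 42.5 CPM at 30 dyn/cm², all below the lowest WT library. At 2 dyn/cm² the difference of 0.13 ± 0.07 did not pass (adjusted p = 0.0800), although it passed with library totals as the scaling (0.24), with no filter (0.14), in the fit of the compared groups alone (0.14) and without replicate 3 of static orpk or of orpk at 2 dyn/cm² (0.18 for both). At 30 dyn/cm² Egr1 was 1.13-fold lower (-0.17 ± 0.07, adjusted p = 0.0280), a call lost without replicate 3 of static orpk (-0.13) or replicate 1 or 3 at 30 dyn/cm² (-0.16 for both). Egr2 had 2.57, 2.58 and 3.0 CPM in static cells, 5.62, 5.83 and 6.19 CPM at 2 and 8.39, 8.43 and 6.36 CPM at 30 dyn/cm², and rose 2.17-fold (1.12 ± 0.16, adjusted p = 1.12e-07) and 2.85-fold (1.51 ± 0.16, adjusted p = 2.74e-11). Egr3 had 10, 5 and 4 reads in the static libraries, 10, 9 and 10 reads at 2 and 9, 15 and 9 reads at 30 dyn/cm². At that depth the differences of 0.45 ± 0.43 and 0.89 ± 0.41 did not pass (adjusted p = 0.370 and 0.0551), and the latter passed without replicate 1 of static orpk (1.39, adjusted p = 0.0130) or replicate 1 at 30 dyn/cm² (1.01, adjusted p = 0.0483).

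**Figure D2:**
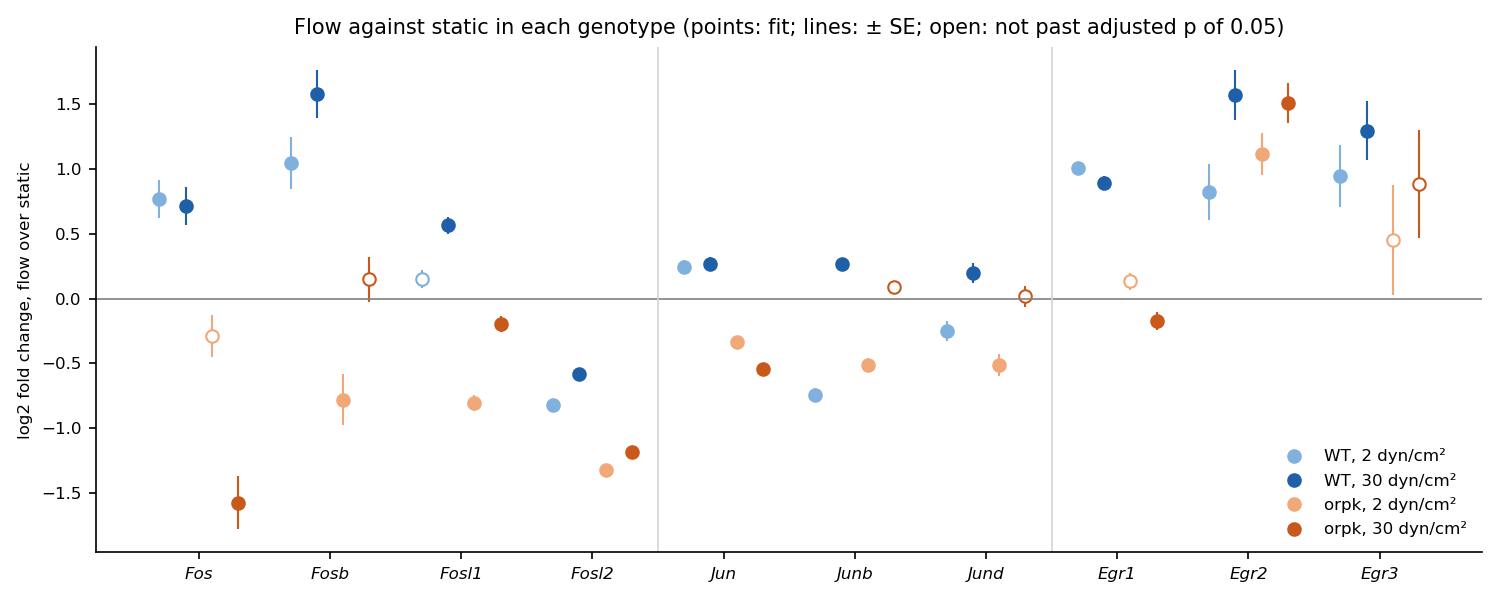
log2 fold change of shear against static for each gene, as the fitted value with lines for ± SE, in WT (blue) and orpk (orange) at 2 (pale) and 30 dyn/cm² (dark); open points did not pass an adjusted p of 0.05. The WT points of Fos, Fosb, Jun and all Egr genes lie above 0, whereas the orpk points of Fos, Fosl1, Fosl2 and Jun lie below 0.

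Across the 10 genes in orpk, 1 was higher and 6 were lower at 2 dyn/cm² against static, where 62.0% of all genes were called, 30.9% higher and 31.1% lower. At 30 dyn/cm² 1 was higher and 5 were lower, where 69.9% were called, 36.5% higher and 33.3% lower. The sheared and static libraries did not overlap for 7 of the 10 at either shear, against 65.3% of all genes at 2 and 73.3% at 30 dyn/cm², so in orpk the number of separated members was near the background. The median absolute log2 fold change of the members was 0.51 at 2 and 0.37 at 30 dyn/cm², against 0.26 and 0.36 over all genes. Leaving out replicate 2 at 2 dyn/cm², which stood apart, left the counts at 1 higher and 6 lower. The fibroblast sum in orpk was 28245 to 29109 CPM in static cells, 19646 to 22663 at 2 and 23440 to 24762 at 30 dyn/cm². In that order Pdgfra averaged 1592, 519 and 132 CPM, and Thy1 33.3, 50.4 and 70.3 CPM. Of the 6 fibroblast genes tested, 1 was higher and 5 lower at 2, and 1 higher and 4 lower at 30 dyn/cm². The smooth muscle sum in orpk was 731 to 821 CPM in static cells, 1287 to 1497 at 2 and 2432 to 2613 at 30 dyn/cm². The epithelial sum was 83.8 to 93.1 CPM in static orpk cells, 48.0 to 58.2 at 2 and 16.1 to 18.2 at 30 dyn/cm². It was mostly Krt19 (86.9, 51.5 and 15.3 CPM in that order). No other epithelial marker averaged above 0.984 CPM in an orpk group. Of the 5 epithelial genes tested, 0 were higher and 1 lower at 2, and 1 higher and 1 lower at 30 dyn/cm². The leukocyte sum was 13.2 to 15.2, 10.8 to 11 and 6.55 to 7.90 CPM in the same order. Cd68, its largest part, averaged 7.83, 8.73 and 3.89 CPM. The part of these marker genes in the results was not tested.

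From 2 to 30 dyn/cm² in orpk, 6 members were higher and 3 lower, where 63.6% of all genes were called, 32.1% higher and 31.5% lower. The libraries did not overlap for 10 members, against 68.2% of all genes. Those higher were Fosb (0.93 ± 0.19), Fosl1 (0.61 ± 0.07), Junb (0.60 ± 0.05), Jund (0.53 ± 0.08), Egr2 (0.40 ± 0.13) and Fosl2 (0.14 ± 0.04). Those lower were Fos (-1.29 ± 0.21), Egr1 (-0.31 ± 0.07) and Jun (-0.21 ± 0.05), and Egr3 did not pass (0.43 ± 0.37). The Egr2 call was lost without replicate 2 at 30 dyn/cm² (0.33, adjusted p = 0.0554), with DESeq2 (0.38, adjusted p = 0.0645) and with library totals (0.28, adjusted p = 0.0562), and the Fosl2 call with library totals (0.03).

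Whether the response to shear itself differed between the genotypes was tested as an interaction, the orpk response minus the WT response. Between static and 2 dyn/cm² 1 member had a higher and 6 a lower response in orpk, where 52.6% of all genes were called, 27.1% higher and 25.4% lower. Between static and 30 dyn/cm² 0 were higher and 7 lower, where 57.5% were called, 30.6% higher and 26.9% lower. The largest difference at 30 dyn/cm² was that of Fos, and at 2 dyn/cm² that of Fosb. For Fos the responses at 30 dyn/cm² were 0.71 in WT and -1.58 in orpk, a difference of -2.29 ± 0.25 (adjusted p = 3.26e-10). For Fosb those at 2 dyn/cm² were 1.05 and -0.78, a difference of -1.83 ± 0.28 (adjusted p = 5.20e-07).

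Egr1 rose in WT. In orpk it was at 0.13 ± 0.07 at 2 dyn/cm², close to the threshold without passing, and at -0.17 ± 0.07 at 30 dyn/cm². The Egr1 responses differed by -0.87 ± 0.08 at 2 (adjusted p = 2.78e-10) and -1.06 ± 0.09 at 30 dyn/cm² (adjusted p = 5.07e-12). Jun rose in WT and fell in orpk, a difference of -0.58 ± 0.07 at 2 (adjusted p = 1.65e-09) and -0.81 ± 0.07 at 30 dyn/cm² (adjusted p = 2.01e-13). Fosl2 fell in both genotypes, by more in orpk at either shear (-0.51 ± 0.05 and -0.60 ± 0.05, adjusted p = 3.63e-11 and 1.81e-13). For Egr2 no difference was detected at either shear (0.29 ± 0.28 and -0.06 ± 0.25, adjusted p = 0.393 and 0.879), nor for Egr3 (-0.50 ± 0.51 and -0.41 ± 0.50, adjusted p = 0.435 and 0.509). The errors for Egr3 span a difference of the size seen for Egr1. Jund missed the threshold (-0.26 ± 0.11 and -0.18 ± 0.11, adjusted p = 0.0650 and 0.190). The difference for Junb at 30 dyn/cm² (-0.18 ± 0.06, adjusted p = 0.0166) was lost without replicate 1 of static orpk (-0.16) or replicate 2 of static WT (-0.14). That for Jund at 2 dyn/cm² passed without replicate 2 of static orpk (-0.32) or replicate 3 of WT at 2 dyn/cm² (-0.34) and with DESeq2 (-0.27). It also passed there with no filter (-0.26) and with replicate number as a block (-0.26). At 30 dyn/cm² the Jund difference passed with no filter (-0.18) and with library totals (-0.28).

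The difference between genotypes in the step from 2 to 30 dyn/cm² passed for 3 members, all lower in orpk, where 46.5% of all genes were called, 25.0% higher and 21.5% lower. They were Fos (-1.23 ± 0.25, adjusted p = 7.34e-05), Junb (-0.41 ± 0.07, adjusted p = 2.03e-06) and Jun (-0.23 ± 0.07, adjusted p = 0.00413). Egr1 missed it (-0.19 ± 0.08, adjusted p = 0.0616) and passed without replicate 1 or 3 of orpk at 2 dyn/cm² (-0.22 and -0.24) or replicate 2 of WT at 2 dyn/cm² (-0.24). It also passed with library totals (-0.28, adjusted p = 0.00465), RLE size factors (-0.21), no filter (-0.19) and the compared groups alone (-0.19). Fosl1 (0.20 ± 0.09) passed without replicate 1 of WT at 30 dyn/cm² (0.26).

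Compared at the same shear, orpk and WT cells differed in most tested genes, members included. In static culture 7 members were higher and 3 lower in orpk, where 87.8% of all genes were called, 44.4% higher and 43.4% lower. At 2 dyn/cm² 4 were higher and 5 lower (87.5% called, 44.6% higher and 42.9% lower), and at 30 dyn/cm² 4 were higher and 4 lower (86.9% called, 44.9% higher and 42.0% lower). For 9 members the orpk and WT libraries were fully separate in static culture, at 2 and at 30 dyn/cm², against 88.1%, 86.8% and 88.6% of all genes. Counts of called members are therefore near the background, and the values that follow describe sizes. The fibroblast, smooth muscle and epithelial marker sums given above differ between the same groups, and their part in these differences was not tested.

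Jun and Fosl2 were higher in orpk at every shear. Jun averaged 181 ± 7.98 CPM (SD, n = 3 here and below) in orpk against 55.7 ± 2.71 CPM in WT in static culture, 3.25-fold higher (1.70 ± 0.05 SE, adjusted p = 1.38e-30). Its difference was 1.12 ± 0.05 at 2 and 0.89 ± 0.05 at 30 dyn/cm². Fosl2 was 2.32-fold higher in static orpk cells, 536 ± 3.89 against 230.5 ± 6.37 CPM (1.22 ± 0.04, adjusted p = 2.48e-30), and by 0.71 ± 0.04 and 0.61 ± 0.04 at 2 and 30 dyn/cm². Egr2 was also higher throughout (0.90 ± 0.22, 1.20 ± 0.15 and 0.84 ± 0.14 for static, 2 and 30 dyn/cm²). Each of these differences kept its call under every scaling tried.

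Egr1, Egr3 and Jund were lower in orpk at every shear. Egr1 averaged 48.5 ± 2.62 CPM in static orpk cells against 102 ± 7.44 in WT (-1.07 ± 0.06, adjusted p = 1.01e-16), and at 30 dyn/cm² 43.0 ± 1.19 against 189 ± 4.63 CPM, 4.39-fold lower (-2.14 ± 0.06, adjusted p = 4.52e-25). The difference at 2 dyn/cm² was -1.94 ± 0.06. For Egr3 the differences were -1.37 ± 0.37, -1.87 ± 0.28 and -1.78 ± 0.26 in static culture, at 2 and at 30 dyn/cm². Jund was lower by -0.64 ± 0.08, -0.90 ± 0.08 and -0.82 ± 0.08 in that order.

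The remaining genes changed sides or lost their difference with shear. Fosb was 2.19-fold higher in static orpk cells (1.13 ± 0.21, adjusted p = 3.78e-06), lower at 2 dyn/cm² (-0.70 ± 0.19, adjusted p = 0.000827) and not past the threshold at 30 dyn/cm² (-0.30 ± 0.16, adjusted p = 0.0720), where it passed with library totals (-0.61, adjusted p = 0.000404) and without replicate 2 of WT (-0.43, adjusted p = 0.0163). Fos was called 1.28-fold higher in static orpk cells although the libraries overlapped (0.36 ± 0.16, adjusted p = 0.0384), and lower at 2 (-0.70 ± 0.15) and 30 dyn/cm² (-1.93 ± 0.19, adjusted p = 2.37e-12). That static call was lost without replicate 1 or 3 of orpk (0.22 and 0.36) or replicate 1 or 3 of WT (0.21 and 0.38), with library totals (0.14, adjusted p = 0.400) and with DESeq2 (0.39). Fosl1 was 1.87-fold higher in static orpk cells (0.91 ± 0.07, adjusted p = 1.95e-16) and differed by -0.05 ± 0.07 at 2 dyn/cm², where it was called lower with library totals (-0.27, adjusted p = 0.000336). At 30 dyn/cm² Fosl1 was higher by 0.14 ± 0.06 (adjusted p = 0.0309), a call that turned to -0.17 with library totals and was lost without replicate 1 or 3 of orpk (0.14 and 0.13) or replicate 2 or 3 of WT (0.10 and 0.13). Junb was higher by 0.24 ± 0.05 in static cells (0.03 and not called with library totals) and 0.48 ± 0.05 at 2 dyn/cm², and at 30 dyn/cm² the 0.07 ± 0.04 did not pass and turned to -0.25 with library totals.

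**Figure D3:**
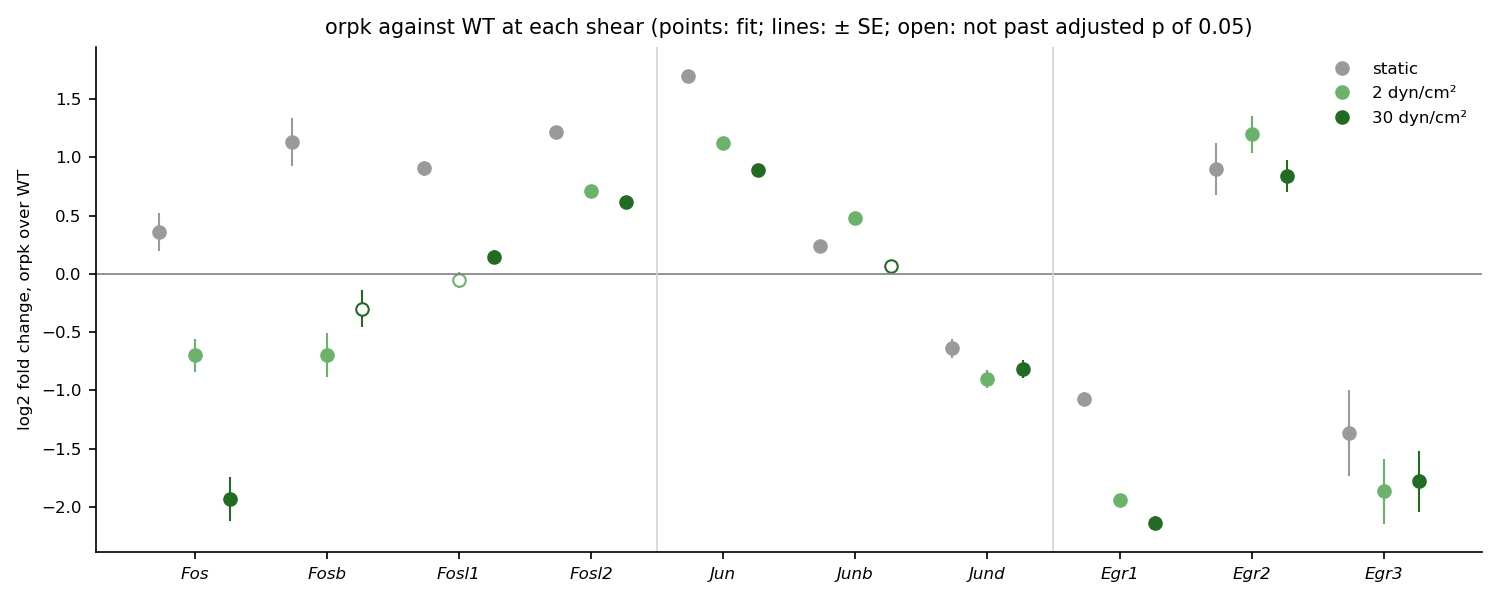
log2 fold change of orpk against WT for each gene in static culture (grey), at 2 (pale green) and at 30 dyn/cm² (dark green), as the fitted value with lines for ± SE; open points did not pass an adjusted p of 0.05. Jun, Fosl2 and Egr2 lie above 0 and Jund, Egr1 and Egr3 below 0 at every shear, whereas Fos and Fosb go from above 0 in static culture to below 0 under shear.

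To compare genes with each other, levels were divided by the length of the union of each gene's exons and are given as CPM per kilobase (kb). In static WT cells the order was Jund (168), Junb (43.5), Fosl2 (23.8), Egr1 (22.7), Jun (17.5), Fosl1 (11.3), Fos (1.78), Egr2 (0.430), Egr3 (0.266) and Fosb (0.236 CPM per kb). In static orpk cells Jund (108 CPM per kb) was followed by Jun (56.9), Fosl2 (55.3) and Junb (51.6), and Egr3 (0.101) was last. With the length of the longest coding transcript in place of the exon union, an alternative chosen after seeing the data, Fosl2 (81.9) and Junb (65.6) stood above Jun (56.9 CPM per kb) in static orpk cells. In static WT cells Egr3 (0.297) was then last, below Fosb (0.389 CPM per kb).

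Within the Fos family, transcripts of the genes without an activation domain made up most of the sum in all 6 groups. Fosl2 supplied 64.2% ± 2.52 of the family's CPM per kb in static WT cells, 45.6% ± 0.804 at 2 and 43.9% ± 1.12 at 30 dyn/cm², and 69.8% ± 1.16, 60.7% ± 1.04 and 55.1% ± 0.280 in orpk. Fosl1 supplied 30.4% ± 1.54, 42.4% ± 2.52 and 46.1% ± 1.32 in WT and 26.6% ± 1.69, 33.3% ± 0.875 and 41.8% ± 0.249 in orpk. Under shear the family thus held relatively less Fosl2 and more Fosl1 in both genotypes. Fos went from 4.79% ± 0.972 in static WT cells to 10.3% ± 1.70 at 2 and 8.05% ± 0.457 at 30 dyn/cm², and in orpk from 2.90% ± 0.594 to 5.15% ± 0.268 and 1.73% ± 0.345. With the other length, Fosl2 stayed above Fosl1 in WT at 30 dyn/cm² as well (50.9% and 39.5%), so the order of these 2 genes there depends on the length used. The family sum was 37.1 ± 0.521 CPM per kb in static WT cells, 29.5 ± 0.793 at 2 and 36.2 ± 1.77 at 30 dyn/cm², against 79.3 ± 1.34, 36.3 ± 0.529 and 44.1 ± 0.716 in orpk.

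Jund was the most abundant Jun transcript in every group. It supplied 73.4% ± 0.189, 75.1% ± 1.04 and 72.4% ± 1.53 of the Jun family's CPM per kb in static, 2 and 30 dyn/cm² WT cells, and 49.9% ± 1.42, 48.3% ± 0.686 and 53.8% ± 0.640 in orpk. The share of Jun was 7.62% ± 0.240, 11% ± 0.460 and 7.91% ± 0.419 in WT and 26.3% ± 0.801, 28.7% ± 0.493 and 19.2% ± 0.665 in orpk. The genotypes did not overlap in either share. Jun stood above Junb in orpk at 2 dyn/cm² (28.7% and 23.1%) and in static orpk cells (26.3% and 23.8%), an order that turned with the other length (27.0% and 27.6%, and 24.7% and 28.5%). Egr1 supplied 97.0% ± 0.657, 97.3% ± 0.245 and 95.7% ± 0.169 of the Egr sum in WT and 92.3% ± 0.390, 86.3% ± 1.34 and 79.7% ± 2.34 in orpk. The share of Egr2 was 6.81% ± 0.248, 12.7% ± 1.22 and 18.8% ± 2.26 in orpk against 1.86% ± 0.469, 1.61% ± 0.151 and 2.89% ± 0.371 in WT. These are shares of a smaller sum in orpk. At 30 dyn/cm² Egr1 averaged 9.59 CPM per kb in orpk against 42.2 in WT, and Egr2 2.27 against 1.27. In amount, Egr2 thus did not make up for the lower Egr1.

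**Figure D4:**
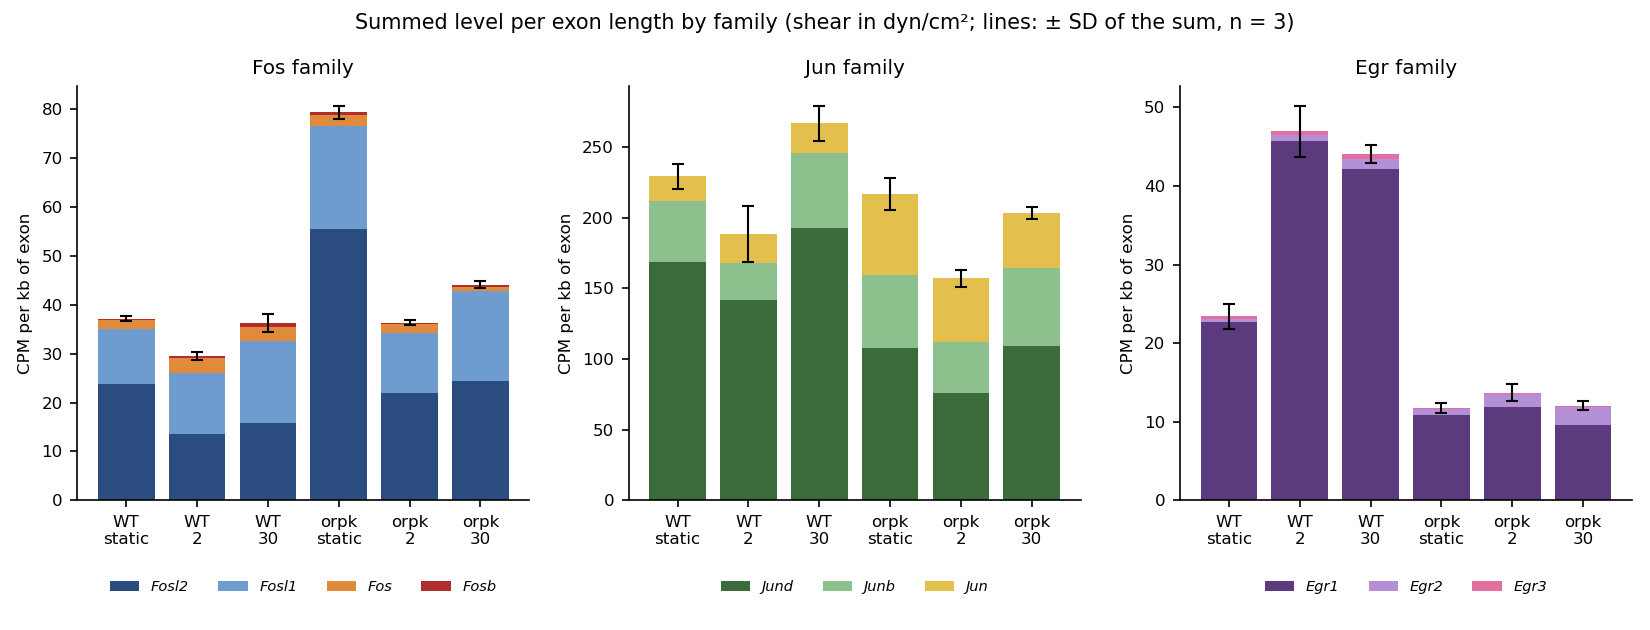
Summed level of each family in CPM per kb of exon (bars from 0, mean of 3 libraries, coloured by gene) in the 6 groups, with lines for ± SD of the sum; shear is in dyn/cm². The Fos family sum is highest in static orpk cells (79.3), Egr1 makes up nearly all of the Egr sum in WT, and the Egr2 part grows in orpk.

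Ordered over all 6 groups, the genes fell into a few shapes. Egr1 was highest in WT at 2 dyn/cm², whose libraries overlapped those of WT at 30, and lowest in orpk at 30 dyn/cm², a span of 4.76-fold between means. Fos had the same ends, 7.15 ± 1.35 and 1.8 ± 0.390 CPM, a span of 3.98-fold. Egr3 and Jund were highest in WT at 30 dyn/cm² and lowest in an orpk group (spans 6.39-fold and 2.55-fold). Jun, Fosl1 and Fosl2 were highest in static orpk cells (spans 3.26-fold, 1.87-fold and 4.10-fold), and the first 2 were lowest in static WT cells, Fosl1 however not with library totals, where orpk at 2 dyn/cm² was lowest. Egr2 was highest in orpk at 30 dyn/cm² and lowest in static WT cells, with a span of 5.28-fold, and only static orpk and WT at 2 dyn/cm² overlapped among neighbours in its order. Junb was highest at 30 dyn/cm² and lowest at 2 dyn/cm² in each genotype, although the 2 groups at 30 dyn/cm² changed places with library totals. For Fosb, neighbouring groups in the order overlapped at 4 of 5 steps.

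Once the mean of each genotype was subtracted, log2 CPM over the 18 libraries described which genes varied alike within a genotype. The libraries share their groups, so these values are given without a test. Among member pairs r was highest for Junb and Jund (0.88), Fosb and Fosl1 (0.80), Fosl1 and Jund (0.79), Egr2 and Egr3 (0.78) and Fos and Jun (0.77), and lowest for Fosl2 and Egr2 (-0.80). Fos and Fosb, which share the strong activation domain, had an r of 0.14. A wider search covered the tested genes outside the members that reached a set minimum of mean CPM. Among these, the pattern most like that of Junb was that of Fstl3 (0.97), a secreted binder of activin. Fos was most like Midn (0.94), Fosb like Rbm19 (0.95) and Fosl1 like Npm1 (0.95), a nucleolar chaperone. For Jun it was Dhx40 (0.96), for Egr1 Elmod2 (0.96) and the p53 target Eda2r (0.96), for Egr2 Nom1 (0.96) and for Egr3 Ing5 (0.89).

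The genes around AP-1 and EGR in the same pathways were read from lists chosen with results of these data known. Of the other immediate early genes, 21 of 23 were tested. In WT 11 rose and 6 fell at 2 dyn/cm², and 13 rose and 5 fell at 30 dyn/cm² (medians 0.16 and 0.59, against 0.01 and 0.00 over all genes). Of all genes in WT 32.6% were higher and 30.3% lower at 2, and 34.1% and 32.7% at 30 dyn/cm². In orpk 11 rose and 7 fell at 2 and 13 rose and 6 fell at 30 dyn/cm² (medians 0.33 and 0.53). The shares of all genes there were 30.9% higher and 31.1% lower at 2, and 36.5% and 33.3% at 30 dyn/cm². Ccn1, which encodes a matrix protein and is a target of YAP, rose from 129 ± 8.06 to 271 ± 6.74 CPM in WT at 30 dyn/cm² (1.06 ± 0.04) and from 145 ± 1.56 to 849 ± 8.44 CPM in orpk (2.55 ± 0.04). Nr4a1, an orphan nuclear receptor, rose in orpk at 30 dyn/cm² (1.44 ± 0.09) and in WT at 2 dyn/cm² (1.02 ± 0.11). Ier3, a survival factor, fell in orpk from 246 ± 21.0 to 44.7 ± 1.22 CPM at 2 dyn/cm² (-2.46 ± 0.06), and its response differed between genotypes by -1.83 ± 0.09.

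Upstream of these genes stand kinases of the MAPK cascades and the SRF factors, of which 19 of 20 were tested. In WT 3 rose and 11 fell at 2 dyn/cm² and 2 rose and 10 fell at 30 dyn/cm² (medians -0.25 and -0.15, against 0.01 and 0.00 over all genes). Called in either direction were thus 14 and 12 of 19, near the 62.9% and 66.9% of all genes. The largest change was that of Map2k1, the kinase of ERK (-1.0 ± 0.04 and -0.91 ± 0.04). In orpk 5 rose and 7 fell at 2, and 9 rose and 6 fell at 30 dyn/cm² (medians -0.05 and 0.05), where 62.0% and 69.9% of all genes were called. Srf, whose protein binds the CArG box, rose in orpk from 54.9 ± 1.18 CPM to 145 ± 14.1 at 2 and 129.5 ± 6.39 at 30 dyn/cm² (1.4 ± 0.07 and 1.24 ± 0.07). Its response differed from that of WT by 1.16 ± 0.10 and 1.06 ± 0.10 (adjusted p = 1.93e-09 and 7.54e-09), opposite in sign to the differences of Fos and Egr1.

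Genes known as targets of AP-1 were tested for 17 of 20. In WT 9 rose and 3 fell at 2 and 11 rose and 2 fell at 30 dyn/cm² (medians 0.28 and 0.73), where 32.6% of all genes were higher and 30.3% lower at 2, and 34.1% and 32.7% at 30 dyn/cm². In orpk 2 rose and 10 fell at 2, and 11 rose and 5 fell at 30 dyn/cm² (medians -0.22 and 1.04), where 30.9% of all genes were higher and 31.1% lower at 2, and 36.5% and 33.3% at 30 dyn/cm². Gja1, the gap junction protein connexin 43, rose in WT from 3.55 ± 0.440 to 14.3 ± 0.878 CPM at 30 dyn/cm² (2.02 ± 0.12). In orpk it fell from 98.2 ± 6.51 to 17.8 ± 1.46 CPM at 2 dyn/cm² (-2.46 ± 0.06). The shears differ, so these Gja1 values do not compare the responses of the genotypes.

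All 10 genes listed as EGR targets were tested. In WT 3 rose and 6 fell at 2 and 3 rose and 5 fell at 30 dyn/cm² (medians -0.69 and -0.23), where 62.9% and 66.9% of all genes were called. Vegfa, the vascular growth factor, was the furthest down (-2.90 ± 0.04 and -2.89 ± 0.04). In orpk 2 rose and 4 fell at 2, and 4 rose and 4 fell at 30 dyn/cm² (medians -0.08 and 0.30), where 62.0% and 69.9% of all genes were called. Pdgfb, a growth factor for mural cells, rose in orpk at 30 dyn/cm² from 1.75 ± 0.168 to 16.4 ± 2.4 CPM (3.22 ± 0.14), far below its WT level of 175 ± 1.86 CPM.

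**Figure D5:**
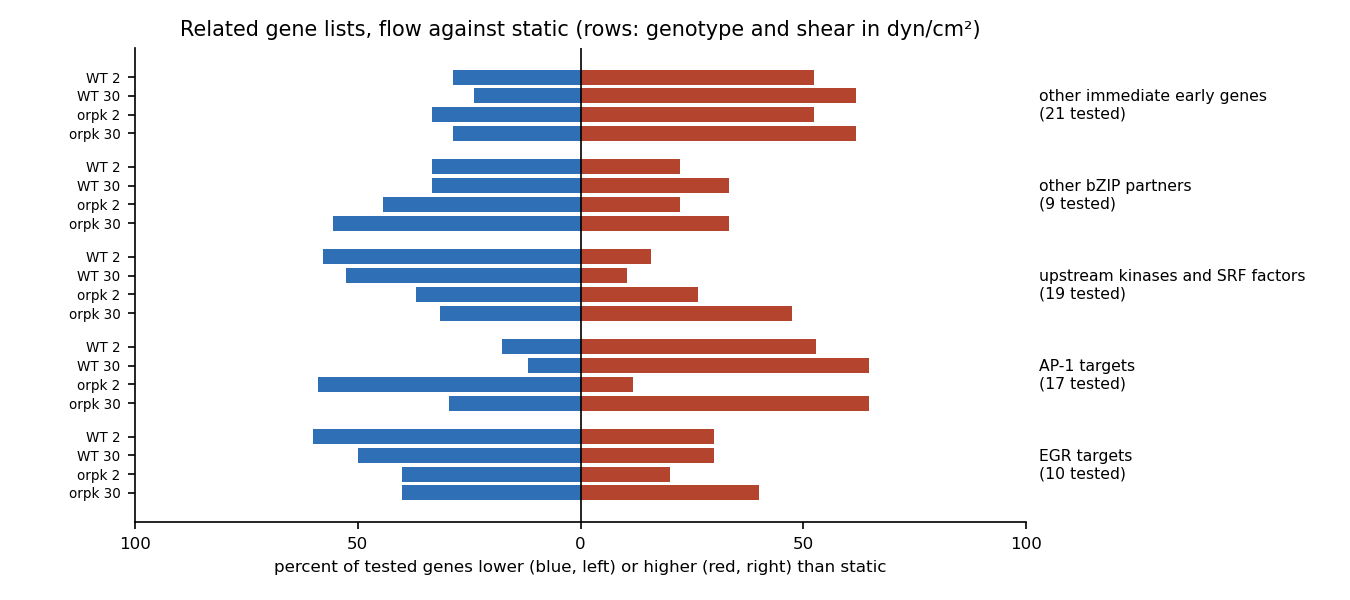
Percent of the tested genes of each related list that passed as lower (blue, left of 0) or higher (red, right of 0) than static, for WT and orpk at 2 and 30 dyn/cm². The AP-1 target list has more higher than lower genes in WT at both shears and in orpk at 30 dyn/cm², and more lower than higher genes in orpk at 2 dyn/cm².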

How the data were processed

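Per the labels' protocols, stranded mRNA libraries gave single reads of 50 nt. The deposited values are the authors' read count per gene and library, made with CASAVA 1.8.2, STAR 2.4 and featureCounts 1.4.6 on GRCm38, per the submitters' processing notes. Whether counting used the strand is not given in the sources used here, so reads of a member and of an overlapping gene on the other strand (4 of 10 members have one) may not be told apart.

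Groups were taken from the labels. In edgeR 4.0.16 (R 4.3.3), filterByExpr left 13058 genes. TMM factors set the library scale, and 1 quasi-likelihood fit with robust settings covered all 6 groups (12 residual degrees of freedom, biological coefficient of variation 3.28%). The 12 comparisons used the F test of that fit in edgeR over all genes, with Benjamini-Hochberg adjustment at 0.05. The SE was obtained by dividing the absolute log2 fold change by the square root of F. The method was tested on simulated data in which few genes changed, with random signs. Far more genes were called in the comparisons here, so that test does not bear on the scaling of the real libraries. All 10 members are described in every comparison, and of each related list up to 4 genes past the threshold with the largest change and a mean of at least 1 CPM could be named. The members and lists were chosen with earlier results of these data known. Alternatives were DESeq2 1.42.0, RLE size factors, library totals, all genes without a filter, a fit of only the groups compared, replicate number as a block, each library left out in turn and, chosen after seeing the data, another gene length. Symbols and exon lengths are from GENCODE M21, and promoter windows from RefSeq on GRCm38.p6, which held one for 7 members.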

Additional observations from a re-analysis of the deposited data

Results flagged for a closer look

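These 17 values were marked because the response to shear differed between the genotypes by the interaction test. They are log2 values, the orpk response minus the WT response.

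Between static and 2 dyn/cm² they were -1.83 for Fosb, -1.06 for Fos, -0.96 for Fosl1, -0.87 for Egr1, -0.58 for Jun, -0.51 for Fosl2 and 0.23 for Junb. Fos, Fosb and Jun rose in WT, while in orpk Fosb and Jun fell and Fos was at -0.29 without passing. For Junb the positive value stands for a smaller fall in orpk (-0.51) than in WT (-0.74).

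Between static and 30 dyn/cm² the values were -2.29 for Fos, -1.43 for Fosb, -1.06 for Egr1, -0.81 for Jun, -0.76 for Fosl1, -0.60 for Fosl2 and -0.18 for Junb. Fosl1 rose in WT (0.57) and fell in orpk (-0.20). Between 2 and 30 dyn/cm² they were -1.23 for Fos, -0.41 for Junb and -0.23 for Jun. Fos at 30 dyn/cm² is thus the member whose response differed most.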

How the results depend on the processing

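Of 1617 single values of the 10 genes under an alternative, 1531 kept their direction and their side of the threshold, and 90 of 120 comparisons of a gene did so under every alternative run. With library totals as the scaling, 1 member in place of 0 was lower in WT at 30 against 2 dyn/cm², 2 in place of 1 were higher in orpk at 2 dyn/cm² against static, 7 in place of 4 were lower in orpk than in WT at 30 dyn/cm², and 5 in place of 3 had a lower step from 2 to 30 dyn/cm² in orpk. That scaling moved the median of all genes by 0.11 in WT at 2 dyn/cm², by -0.12 in orpk from 2 to 30 dyn/cm², and by -0.22, -0.22 and -0.31 between the genotypes in static culture, at 2 and at 30 dyn/cm². Fosl1 (-0.17) and Junb (-0.25) then turned sign in orpk against WT at 30 dyn/cm², as did the interactions of Jund and Egr3 from 2 to 30 dyn/cm² (-0.0085 and -0.0081). With no filter the first and second of these counts were again 1 and 2, and with the compared groups alone the second was 2. Jund in orpk at 30 dyn/cm² against static was -0.023 with RLE size factors, -0.022 with DESeq2 and -0.0053 with the compared groups alone. With library totals the share of calls that were higher went from 51.8% to 65.9% in WT and from 49.8% to 64.3% in orpk at 2 dyn/cm², from 50.4% to 34.4% in orpk from 2 to 30 dyn/cm², from 51.0% to 40.6% and from 51.6% to 38.5% between the genotypes at 2 and 30 dyn/cm², and for the interactions from 53.2% to 42.8% (static to 30) and from 53.7% to 38.8% (2 to 30 dyn/cm²).

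Replicate numbers did not pair the libraries: over 45 pairs of same-numbered libraries the correlation of their deviations from the group means ran from -0.05 to 0.05. The fit with replicate number as a block gave 1 lower member in WT at 30 against 2 dyn/cm², and 2 higher members in orpk at 2 and at 30 dyn/cm² against static, and called 5 single values that the fit without it did not.

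When each library was left out in turn, the number of lower members in WT at 30 against 2 dyn/cm² ran from 0 to 1, that of higher members in orpk at 2 and at 30 dyn/cm² against static from 1 to 2 each, and that of higher interactions from 2 to 30 dyn/cm² from 0 to 1. Values that turned sign were none of them past the threshold: from 30 against 2 dyn/cm² in WT, Fos ran from -0.21 to 0.041 and Jun from -0.028 to 0.070, and in orpk at 30 dyn/cm² against static Jund ran from -0.042 to 0.076. Among interactions, Egr3 ran from -0.82 to 0.0047 at 2 against static, from -0.73 to 0.089 at 30 against static and from -0.17 to 0.20 at 30 against 2 dyn/cm², Egr2 from -0.18 to 0.10 at 30 against static and Jund from -0.011 to 0.16 at 30 against 2 dyn/cm². The cause of these changes was not tested. Depth limits Egr3 most, with 19 reads in static orpk cells.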

Other observations

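Of 12 other basic leucine zipper genes 9 were tested. At 2 and 30 dyn/cm² against static, 2 and 3 were higher and 3 and 3 lower in WT, and 2 and 3 were higher and 4 and 5 lower in orpk, where 62.9%, 66.9%, 62.0% and 69.9% of all genes were called in the 4 comparisons. The genes named here are among those with the largest changes of the list. Mafk, a small Maf protein without an activation domain, rose under shear in both genotypes, by 0.49 ± 0.06 and 0.69 ± 0.06 in WT and by 0.99 ± 0.06 and 2.00 ± 0.06 in orpk at 2 and 30 dyn/cm². Maf fell in WT (-1.11 ± 0.22 and -2.08 ± 0.26) and in orpk (-0.78 ± 0.05 and -1.86 ± 0.06), and stood 5.07 ± 0.09 higher in static orpk cells on the log2 scale. The EGR corepressors Nab1 and Nab2 moved in opposite directions in orpk at 30 dyn/cm² (0.62 ± 0.04 and -0.95 ± 0.04). In WT Nab1 fell there (-0.42 ± 0.04) and Nab2 did not pass, and the responses differed between the genotypes by 1.04 ± 0.06 for Nab1 and -1.02 ± 0.06 for Nab2. Nab2 is also on the list of EGR targets.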
